A study of Mus musculus with 69 samples.

Results

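A set of 10 genes of macrophages and other myeloid cells, Cd68, Csf1r, Itgax, Itgam, Mrc1, Msr1, Cd14, Lyz2, Ms4a7 and Clec7a, were followed in whole kidney RNASeq of NZB/W F1 mice, a hybrid strain that develops lupus nephritis with age. They were taken by name from the 24538 gene symbols counted, and 10 of 10 were present and passed the filter on low counts in each comparison. The series holds 69 libraries, of which 65 are original libraries of 1 mouse each and 4 are repeats of mice already sequenced. The originals come from 30 young, 27 nephritic and 8 remission mice. Young mice were 12 weeks old. Nephritic mice were 30 to 45 weeks old and were taken 2 to 3 weeks after proteinuria passed 300 mg/dl. Remission mice had been nephritic and were treated at 36 to 50 weeks of age. They received 1 dose of cyclophosphamide at 50 mg/kg and 6 doses each of CTLA4Ig (200 ug) and anti-CD40L (250 ug) over 2 weeks, and were taken 8 weeks later, when proteinuria was at or below 30 mg/dl. All mice were kept in 12 h of light and 12 h of dark, and kidneys were perfused with PBS. Young and nephritic kidneys were collected every 4 h at 6 Zeitgeber times (ZT0 is lights on, ZT12 lights off), and remission kidneys at ZT0 and ZT12 only. Age differs between young and nephritic mice by design, so age and nephritis cannot be told apart here. Remission mice differ from both other groups in drug treatment and in age range, so these and remission cannot be told apart either. A healthy mouse of the nephritic age was not analysed here.

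Macrophages live in the healthy kidney between the tubules, where they depend on the receptor encoded by Csf1r for their survival, and in nephritis they are joined by cells that arrive as monocytes from the blood. The 10 genes cover several jobs of these cells. Itgam (CD11b) and Itgax (CD11c) are the alpha chains of beta 2 integrins that bind adhesion molecules and complement fragments. Cd68 encodes a glycoprotein of the lysosome membrane and Lyz2 the lysozyme of myeloid cells. Cd14 is the co-receptor that hands lipopolysaccharide to TLR4, Clec7a (dectin-1) binds fungal beta-glucan, Msr1 is a scavenger receptor for modified lipoprotein, and Mrc1 (CD206) is the mannose receptor. Ms4a7 encodes a membrane protein with several spans that is found in macrophages and microglia. None of them belongs to a single cell type: Itgam is also found in neutrophils and natural killer cells and Itgax in dendritic cells.

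The gene models lie on 8 chromosomes of the mouse build GRCm38, and the counts are over their exons. Itgam, at chr7:128062640-128118491, and Itgax, at chr7:128129526-128150657, are neighbours on the plus strand. Lyz2, at chr10:117277541-117282272, lies next to its close relative Lyz1 on the minus strand. Cd68 lies at chr11:69664213-69666170, Mrc1 at chr2:14229414-14332023, Msr1 at chr8:39543232-39642750, Ms4a7 at chr19:11321039-11336146 and Clec7a at chr6:129461591-129472785.

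The 250 bases before the RefSeq start site (GRCm38.p6) are shown for 4 members. They were picked because they hold letters that myeloid and stress factors are known to bind. For Itgax the start site used, 128129550, lies inside the gene model given above, which begins at 128129526. The last bases shown for it therefore overlap that model. Capitals mark the letters GAGGAA or, on the other strand, TTCCTC, a core bound by PU.1 (the myeloid Ets factor encoded by Spi1). They also mark TGANTCA, with N for any base, a pattern that takes in the site of AP-1 and is wider than it. A match describes the letters and is not a measured site.
Itgam, chr7:128062390-128062639, plus strand: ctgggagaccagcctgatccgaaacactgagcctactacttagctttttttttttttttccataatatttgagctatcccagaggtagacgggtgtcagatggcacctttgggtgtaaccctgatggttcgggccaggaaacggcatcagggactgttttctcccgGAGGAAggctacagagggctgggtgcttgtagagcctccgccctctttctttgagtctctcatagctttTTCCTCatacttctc
Itgax, chr7:128129300-128129549, plus strand: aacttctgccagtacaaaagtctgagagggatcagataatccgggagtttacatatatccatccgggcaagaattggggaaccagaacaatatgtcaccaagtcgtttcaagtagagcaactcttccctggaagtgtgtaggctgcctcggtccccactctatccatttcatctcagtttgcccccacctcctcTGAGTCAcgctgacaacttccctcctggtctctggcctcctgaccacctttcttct
Cd68, chr11:69666171-69666420, minus strand: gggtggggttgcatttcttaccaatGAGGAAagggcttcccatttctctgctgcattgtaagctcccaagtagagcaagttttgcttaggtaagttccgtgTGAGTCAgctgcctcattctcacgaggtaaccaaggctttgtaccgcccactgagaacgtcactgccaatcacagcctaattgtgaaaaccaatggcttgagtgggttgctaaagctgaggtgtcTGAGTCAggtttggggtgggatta
Mrc1, chr2:14229164-14229413, plus strand: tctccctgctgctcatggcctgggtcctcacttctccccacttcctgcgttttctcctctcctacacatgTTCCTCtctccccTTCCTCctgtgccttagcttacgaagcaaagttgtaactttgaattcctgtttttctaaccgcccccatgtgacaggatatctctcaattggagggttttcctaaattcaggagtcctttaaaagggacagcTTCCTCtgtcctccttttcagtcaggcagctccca

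A promoter was found in the RefSeq table for 7 of the 10 members. The PU.1 letters stood in 4 of the 7 (Cd68, Itgam, Mrc1 and Clec7a), against 23.3% of all 32851 promoters of the same length, and the AP-1 letters in 3 of the 7 (Cd68, Itgax and Ms4a7), against 6.75%. Ms4a7 and Clec7a have 2 promoters in the table, and a member counts if either holds the letters. Counted per promoter the PU.1 letters stood in 5 of 9, of which the 2 of Clec7a hold the same match, and the AP-1 letters in 3 of 9, with Ms4a7 holding them only in its second promoter. The E-box CACGTG, which the clock factors BMAL1 and CLOCK bind, stood in 0 of the 7, against 6.02%. Itgam held the PU.1 letters at 84 and 15 bases before its start, and Mrc1 held them 3 times. Lyz2 held none of the PU.1, AP-1 or E-box letters. The AP-1 match of Ms4a7 read TGATTCA, and those of Cd68 and Itgax read TGAGTCA.

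Total counts per library ran from 25257530 to 35744843 in young, from 26596500 to 48075977 in nephritic and from 13311278 to 21849912 in remission mice, so the remission values carry more counting error. Levels are given as CPM, counts per 1000000 counts of the library, with library sizes scaled by edgeR's TMM factors. By the prefixes of their titles the young and nephritic libraries fall into 2 sets (6 young and 5 nephritic in the first, 24 and 22 in the second), and the remission mice and the repeats form another set by their titles and file prefixes. No label states a sequencing run. The remission set is linked to the other groups through the 4 repeats alone, so without them group and set cannot be told apart. A pair of mice went against their time labels by the clock gene Arntl, which encodes BMAL1 and is low late in the light phase. Remission mouse s9, labelled ZT12, had 27.3 CPM of Arntl against 3.24 to 4.93 in the other 3 remission mice of ZT12 and 22.9 to 28.9 at ZT0. Nephritic mouse RX10RU, labelled ZT8, had 18.4 CPM against 2.08 to 3.76 in the other 3 nephritic mice of ZT8. Both keep their label here, and the members' results that rest on them are given with and without them. Whole kidney holds many cell types, so fewer cells of a type and less RNA per cell cannot be told apart in any value below.

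In young kidney the 10 genes were weakly expressed except for Csf1r and Lyz2. Per kilobase of exon, Lyz2 had the highest level of the 10 in each group, with means of 27.5 CPM per kb in young, 172 in nephritic and 124 in remission mice. Csf1r was the second in young mice at 17.9 CPM per kb and Cd14 the third at 7.12. In nephritic mice Cd14, at 37.2 CPM per kb, stood above Csf1r, at 20.6. Msr1 was the lowest in each group (0.192, 1.30 and 0.453 CPM per kb). Lyz1, whose reads could be mistaken for those of Lyz2, had 0.306, 0.743 and 0.601 CPM per kb in the same order.

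All 10 genes were higher in nephritic than in young kidney, by between 0.21 and 4.46 on the log2 scale. Called here means an adjusted p of at most 0.05 from edgeR's quasi-likelihood test over 17521 genes, with time point and set in the model. Beside the 10 of 10 called higher stands 28.1% of all genes tested. The median log2 change of the 10 was 2.48, against -0.03 over all genes tested. The 2 integrin chains and Ms4a7 stood apart most, and Csf1r moved least.

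The plot of CPM by group shows the 65 mice one by one.

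**Figure D1:**
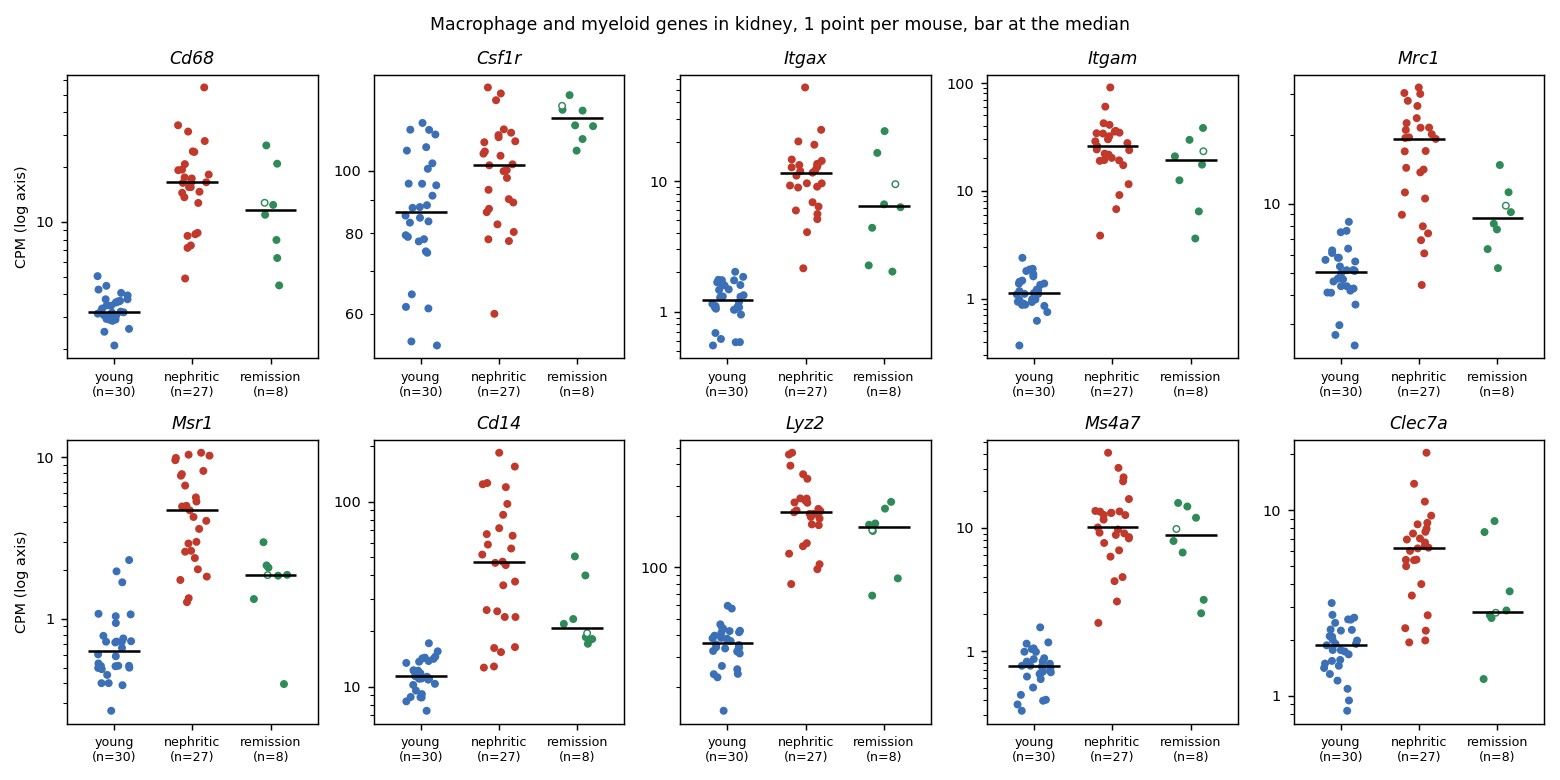
Level of each of the 10 genes in 30 young, 27 nephritic and 8 remission mice. The vertical axis is CPM on a log scale that differs between panels, each point is a mouse, the bar is the group median, and the open circle is remission mouse s9. Young and nephritic points are apart for Itgam, Itgax, Lyz2 and Ms4a7 and overlap widely for Csf1r (86.4 CPM at the young median, 102 at the nephritic median).

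Itgam, the CD11b chain, had a lowest, median and highest level of 0.367, 1.12 and 2.39 CPM in young mice and of 3.84, 25.9 and 91.0 CPM in nephritic mice. The lowest nephritic mouse was above the highest young mouse, and the change was 4.46 on the log2 scale (SE 0.19, adjusted p = 1.4e-25 by edgeR). Itgax, the CD11c chain, ran from 0.551 to 2.02 CPM in young mice (median 1.24) and from 2.15 to 52.1 CPM in nephritic mice (median 11.6). These groups did not overlap either, with a change of 3.21 (SE 0.18, adjusted p = 9.2e-22 by edgeR).

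Ms4a7 ran from 0.328 to 1.56 CPM in young (median 0.755) and from 1.69 to 40.8 CPM in nephritic mice (median 10.1), and rose by 3.95 on the log2 scale (SE 0.21). The lysozyme gene Lyz2 ran from 14.5 to 59.5 CPM in young (median 36.1) and from 79.7 to 468 CPM in nephritic mice, and rose by 2.61 (SE 0.14). For both genes every nephritic mouse was above every young mouse. That was so for 4 of the 10 genes (Itgax, Itgam, Lyz2 and Ms4a7) and for 0.87% of 17587 genes.

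Cd68, of the lysosome membrane, ran from 2.09 to 5.03 CPM in young (median 3.22) and from 4.88 to 54.9 CPM in nephritic mice (median 16.5), with 26 of 27 nephritic mice above every young mouse. It rose by 2.35 on the log2 scale (SE 0.14, adjusted p = 4.0e-20 by edgeR). Cd14, at chr18:36725064-36726815, ran from 7.41 to 17.2 CPM in young (median 11.4) and from 12.7 to 184 CPM in nephritic mice (median 47.5), and rose by 2.33 (SE 0.21). Its nephritic mice were the most spread of the 10 genes, with an SD of 1.14 on the log2 scale against 0.29 in young mice.

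The pattern and scavenger receptors rose with more overlap. Msr1 ran from 0.270 to 2.31 CPM in young (median 0.633) and from 1.27 to 10.7 CPM in nephritic mice (median 4.71). Mrc1 ran from 2.42 to 8.34 CPM in young (median 5.03) and from 4.43 to 32.1 CPM in nephritic mice (median 19.1). Clec7a ran from 0.829 to 3.16 CPM in young (median 1.89) and from 1.94 to 20.4 CPM in nephritic mice (median 6.28). For these 3 genes and for Cd14, 22 of 27 nephritic mice were above every young mouse. The log2 changes were 2.75 for Msr1 (SE 0.22), 1.77 for Mrc1 (SE 0.15) and 1.79 for Clec7a (SE 0.16).

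Csf1r, the receptor that keeps resident macrophages alive (chr18:61105572-61131139), ran from 53.6 to 118 CPM in young (median 86.4) and from 60.0 to 134 CPM in nephritic mice (median 102). Only 3 of 27 nephritic mice were above every young mouse. Its change of 0.21 on the log2 scale (SE 0.06, adjusted p = 0.00368 by edgeR) passed the test and was the smallest of the 10. Measured as a ratio to Csf1r in the same library, with limma, 9 of the other 9 genes were higher in nephritic mice, beside 14.1% of all genes. These ratios rose by between 1.44 (Clec7a, SE 0.15) and 4.11 (Itgam, SE 0.17) on the log2 scale, on which the median of all genes was -0.23. As a ratio to Cd68 instead, Itgam, Ms4a7, Itgax, Lyz2 and Msr1 were again higher. On that scale Mrc1 (-0.57), Clec7a (-0.59) and Csf1r itself were lower, and Cd14 was at -0.23 without passing. Cd68 itself rose by 2.35 on the log2 scale, so lower here means a smaller rise than that of Cd68. The share of all genes called against Cd68 is not given here.

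Within the second set alone 10 of 10 genes were again called higher, with Itgam at 4.49 and Csf1r at 0.29 on the log2 scale. Without mouse RX10RU the count was also 10 of 10, beside 30.5% of all genes.

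**Figure D2:**
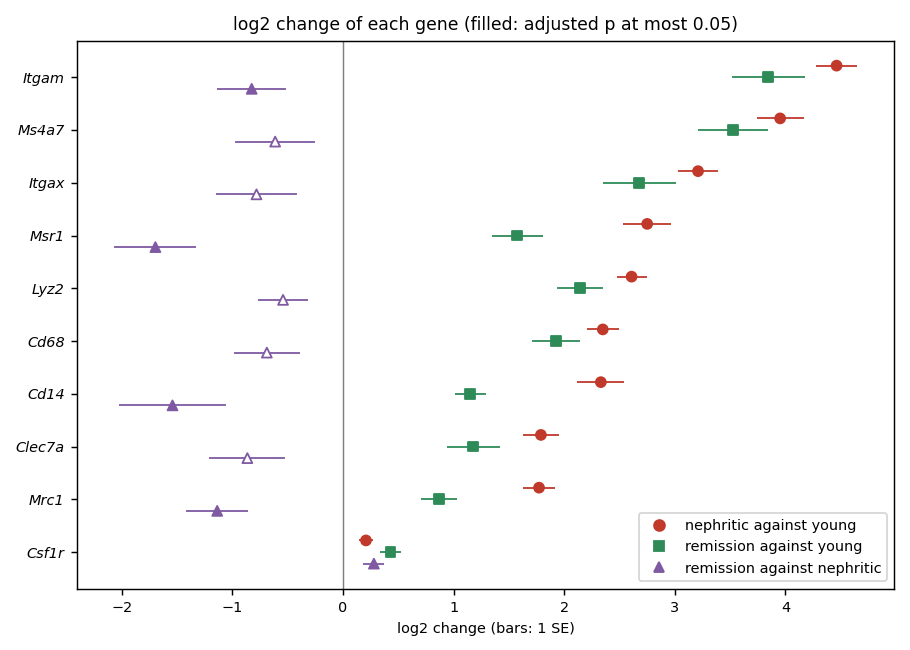
Log2 change of the 10 genes in 3 comparisons: nephritic against young, remission against young and remission against nephritic mice. Points are edgeR estimates with bars of 1 SE, filled where the adjusted p is at most 0.05. Itgam is the farthest to the right against young mice in nephritis (4.46) and in remission (3.84), and Csf1r lies nearest to 0 in both.

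Other genes of the same cells moved along. Of 23 further genes of mononuclear phagocytes, 20 were called higher and 1 lower, with a median change of 2.41 on the log2 scale. The largest rises were those of Fcgr1, the high-affinity IgG receptor, at 3.15 (SE 0.18), of Ctss, the protease cathepsin S, at 3.03 (SE 0.16), and of the sialic acid receptor Siglec1 at 2.96 (SE 0.20). Mertk, a receptor for dying cells, fell by 0.36 (SE 0.10). Of 13 colony-stimulating factors, receptors and myeloid transcription factors, 12 were tested, 11 were higher and 1 was lower. Csf3r, the receptor of G-CSF, rose by 2.61 (SE 0.16), the transcription factor Runx1 by 2.39 (SE 0.22), and Spi1, which encodes PU.1, by 2.37 (SE 0.14).

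The partners of the members rose as a list, with 13 of 13 higher and a median of 1.23. Itgal, the alpha chain of LFA-1, rose by 2.76 (SE 0.15), Itgb2, the beta chain that pairs with the products of Itgam and Itgax, by 2.69 (SE 0.15), Syk, the kinase below dectin-1, by 2.55 (SE 0.17), and Malt1, further down the same path, by 0.26 (SE 0.06). Of 8 monocyte genes 7 were higher and 1 lower. Ly6c2, which marks inflammatory monocytes, rose by 3.10 (SE 0.23) and the chemokine receptor Ccr2 by 2.33 (SE 0.17), whereas the matrix gene Vcan fell by 0.68 (SE 0.20). Of 9 genes tested from the list of alternative activation, 7 were higher and 1 lower. The cytokine gene Il10 rose by 4.99 (SE 0.29), Ccl22, a chemokine for T cells, by 1.72 (SE 0.16), and the scavenger receptor Stab1 by 0.74 (SE 0.08). Il10 had fewer than 100 counts in total over the 30 young libraries, so its change is measured from a level near 0. Arginase (Arg1) was lower by 1.51 on the log2 scale (-1.51, SE 0.66), and without mouse RX10RU 0 genes of this list were called lower.

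Markers of other cells moved as well. All 13 lymphocyte genes were higher, among them the plasma cell gene Jchain at 5.11 (SE 0.39) and the B cell gene Ms4a1 at 5.01 (SE 0.42), with Cd8a of cytotoxic T cells at 0.70 (SE 0.13). Their summed level ran from 9.39 to 68.9 CPM in young and from 29.5 to 2731 CPM in nephritic mice, while that of the 10 members ran from 85.3 to 213 and from 197 to 1014 CPM. Of 6 neutrophil genes tested 0 were called by edgeR and 1 (Camp, lower) had an unadjusted p under 0.05. Over all 17521 genes 6246 were lower at that unadjusted threshold. The summed level of the 7 neutrophil genes that passed the filter over all original libraries was between 0.397 and 2.56 CPM in nephritic mice. Of 7 endothelial genes 5 were lower (4 without RX10RU), and of 10 tubule and podocyte genes 4 were lower and 2 higher, beside 33.9% of all genes called lower. Among them were Lrp2, the megalin gene of the proximal tubule, which fell by 0.94 (SE 0.15), Slc34a1, its phosphate transporter, which fell by 0.80 (SE 0.14), and Slc5a2, its glucose transporter, which fell by 0.75 (SE 0.12). Aqp2, the water channel of the collecting duct, rose by 0.33 (SE 0.12). The part of these cell types in the values of the 10 genes was not tested.

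Among nephritic mice the levels of most members were positively correlated, and Csf1r was the least so. The 36 pairs without Csf1r had correlations of log2 CPM between 0.508 and 0.922 (median 0.826, Pearson, 27 mice, adjusted for set). The 9 pairs with Csf1r had correlations between -0.0233 and 0.671 (median 0.505). The points of such a correlation share library, depth and cell make-up, and the values are a description. The genes most like each member, of 16871 genes, are given with the same correlation. Itgam lay nearest to Tlr8 (0.964), a sensor of single-stranded RNA, and Clec4a3 (0.961), and Itgax to the leukocyte genes Cd53 (0.981) and Arhgap25 (0.977). Cd68 lay nearest to the kinase gene Fes (0.975) and to Tgfbi (0.959).

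Lyz2 lay nearest to the complement receptor gene C3ar1 (0.944) and Nfam1 (0.931), and Ms4a7 to Ctss (0.957) and C3ar1 (0.953). Clec7a lay nearest to Lair1 (0.932) and Ptafr (0.925), and Mrc1 to Siglec1 (0.951) and St3gal1 (0.928). Msr1 lay nearest to Il1rn (0.942), which encodes an antagonist of interleukin 1, and C5ar1 (0.922). Cd14 lay nearest to Anxa2 (0.965) and to the oncostatin M receptor gene Osmr (0.958), genes that are not restricted to leukocytes. Csf1r lay nearest to Irf5 (0.843) and Dock2 (0.835), the lowest of these nearest correlations.

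Lcn2 encodes lipocalin 2, which injured tubules and neutrophils release, and it varied widely among nephritic mice, from 4.79 to 702 CPM (median 73.1) against 1.50 to 17.3 CPM in young mice (median 3.05). With limma over 16871 genes, 7 of the 10 members rose with Lcn2 across the 27 nephritic mice, beside 21.8% of all genes. Set was in this model and time point was not, so time of day and Lcn2 are not separated in these slopes. Of 10 tubule and podocyte genes 6 fell with Lcn2 and 0 rose, and their part in the members' slopes was not tested. Cd14 had the steepest slope, 0.51 log2 units per log2 unit of Lcn2 (SE 0.03, adjusted p = 9.9e-13). Msr1 followed at 0.36 (SE 0.05) and Mrc1 at 0.30 (SE 0.05), and the slopes of Clec7a, Cd68, Ms4a7 and Lyz2 were 0.27, 0.22, 0.22 and 0.15. Itgam (adjusted p = 0.0547), Itgax (adjusted p = 0.0696) and Csf1r (adjusted p = 0.558) did not pass.

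A total of 10 such relations were computed, adjusted for set and not for time point. For Cd14 Pearson's r was 0.957 and Spearman's rho 0.957, both with a permutation p of 1e-05, the smallest that 100000 permutations can give, and r was 0.951 without the 2 mice farthest from the median of Lcn2. Within the 22 mice of the second set r was 0.953. For Msr1 r was 0.797 and rho 0.775, both with a permutation p of 1e-05, and r was 0.756 without the 2 farthest mice. For Csf1r r was -0.126 (permutation p = 0.53) and rho -0.141 (permutation p = 0.483). Cd14 therefore followed Lcn2 closely over the whole range, and Csf1r did not. With Havcr1, another gene of injured tubules, in place of Lcn2, 5 members were called, and Lyz2 (adjusted p = 0.0881) and Ms4a7 (adjusted p = 0.0818) were lost. The share of all genes called with Havcr1 is not given here. The call for Ms4a7 was also lost when RX7LU, RX100, RX90 or CRS6LL was left out (adjusted p of 0.0522 to 0.0625 by limma). Itgam or Itgax passed when any of 5 mice was left out: Itgax without CRS60, RX8LL or RX9RU, and Itgam without these 3, RX12RL or RX10RL.

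**Figure D3:**
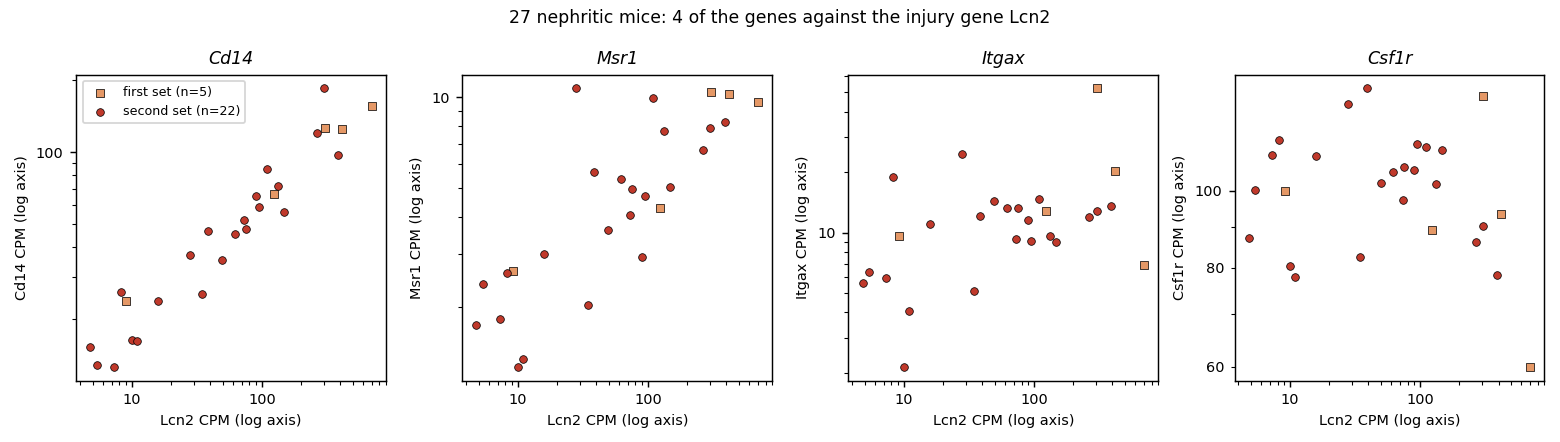
Level of Cd14, Msr1, Itgax and Csf1r against that of Lcn2 in 27 nephritic mice, both in CPM on log axes. Squares are the 5 mice of the first set and circles the 22 of the second. Cd14 rises with Lcn2 along a narrow band (r = 0.957), Msr1 more loosely (r = 0.797), and Csf1r shows no slope that passed the test.

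Over the day in young kidney, Cd14 and Csf1r varied, 2 of the 10 genes, beside 39.4% of the 16521 genes tested. The question was whether any member differed among the 6 time points, by an edgeR F test with set in the model. Cd14 was lowest at ZT8, with 7.41, 8.74, 8.77 and 8.79 CPM in the 4 mice, and highest at ZT16, with a mean of 14.6 ± 2.45 CPM (SD, n = 4). No mouse of ZT8 overlapped those of ZT12, ZT16 or ZT20, which ran from 11.04 to 17.2 CPM. The adjusted p was 8.8e-06 by edgeR, and the amplitude of a 24 h cosine was 0.35 on the log2 scale (SE 0.05).

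Csf1r was lowest in the early light phase, at ZT4, with a mean of 66.3 ± 10.2 CPM (SD, n = 4). It was high from lights off on, at 102 ± 13.7 CPM at ZT12 (SD, n = 7, mice of both sets) and 99.3 ± 10.98 CPM at ZT20 (SD, n = 4, second set), and after adjustment for set its highest mean was at ZT20. The adjusted p was 0.00265 by edgeR and the amplitude 0.31 (SE 0.06). Every mouse of ZT4 was below every mouse of ZT12.

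The other 8 members did not pass in young mice. Clec7a (adjusted p = 0.0761), Msr1 (0.0843) and Mrc1 (0.112) were nearest to the threshold, and Ms4a7, Lyz2, Cd68, Itgax and Itgam had adjusted p of 0.555 to 0.98 by edgeR. In a joint fit of both groups, which shares the wider nephritic spread, the adjusted p of Cd14 was 0.799 and 1 gene, Csf1r, was called. Without mouse ZT8LU 4 genes were called, Mrc1 and Msr1 being added. Of the 23 other phagocyte genes 22 were tested and 9 varied over the day, near the 39.4% of all genes, as did 7 of 10 tubule and podocyte genes, 3 of 13 lymphocyte genes and 4 of 4 neutrophil genes tested. Mouse ZT8LL, the lowest of ZT8 for Cd14, had the highest summed level of neutrophil genes in young mice, 23.3 CPM against a group median of 0.331 CPM, and the part of this in its value was not tested.

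**Figure D4:**
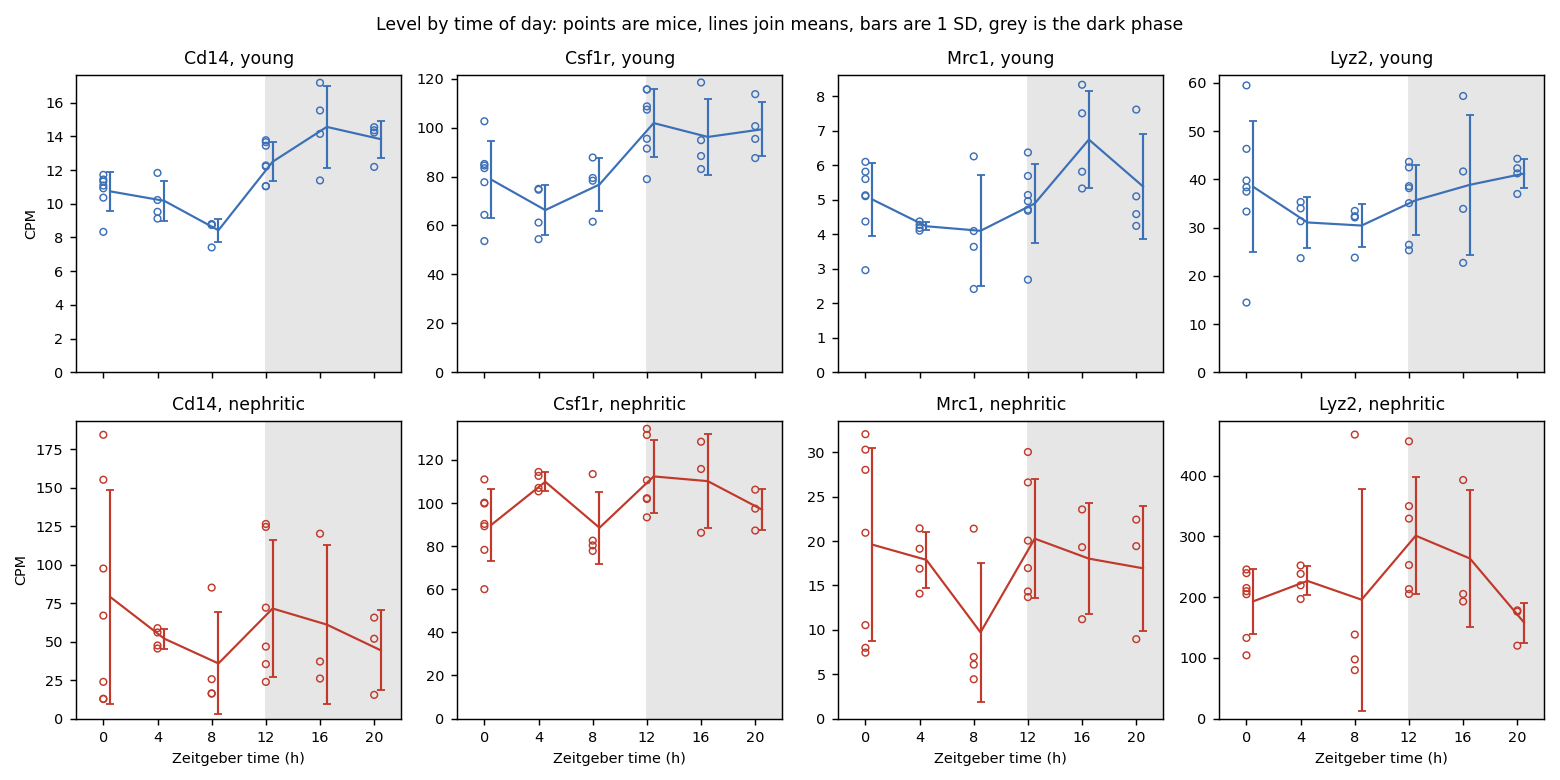
Levels of Cd14, Csf1r, Mrc1 and Lyz2 over the day in 30 young (top) and 27 nephritic mice (bottom), in CPM against Zeitgeber time in hours, with the dark phase in grey. Points are mice and lines join means with bars of 1 SD. In young mice Cd14 rises from a mean of 8.43 CPM at ZT8 to 14.6 CPM at ZT16, and in nephritic mice the spread of Cd14 within a time point is far wider.

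In nephritic kidney 0 of the 10 genes were called over the day with all 27 mice, beside 21.6% of the 16872 genes tested by edgeR. At an unadjusted p under 0.05 there were 2, Itgam (adjusted p = 0.0754) and Itgax (adjusted p = 0.0914), beside 6377 of the 16872 genes. DESeq2 and limma each called the same 2 at the adjusted threshold. Cd14, with an adjusted p of 0.902, had a residual SD of 1.15 on the log2 scale within time points, against 0.15 in young mice. The result turned on mouse RX10RU, whose clock genes go against its label of ZT8. Without it 5 of the 10 genes were called, beside 21% of all genes: Itgam (adjusted p = 0.00334), Ms4a7 (0.00745), Lyz2 (0.00915), Itgax (0.0125) and Cd68 (0.0184).

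At ZT8 the nephritic mice stood far apart. Itgam was at 3.84, 6.76 and 9.14 CPM in RX7LU, RX12RL and RX100, and at 35.4 CPM in RX10RU. At the other 5 times it ran from 11.5 to 91.0 CPM, so those 3 mice were the lowest of the 27. Ms4a7 was at 1.69, 2.53 and 3.70 CPM in the same 3 mice, and at 30.7 CPM in RX10RU. Lyz2 was at 79.7, 138 and 97.4 CPM in them, and at 468 CPM in RX10RU, its highest value in any mouse.

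The 3 mice low in these genes at ZT8 were also low in Lcn2 (9.96, 34.5 and 10.97 CPM, below the nephritic median of 73.1), and RX10RU had 110 CPM. Other cells' genes varied over the day in nephritic mice too: 11 of 13 lymphocyte genes with and without RX10RU, and 1 of 23 other phagocyte genes with it and 12 without it. The part of these cells, of injury or of disease severity in the members' daily values was not tested. The test of a different daily pattern in young and nephritic mice called 0 of 10 with all mice, beside 5.99% of 17521 genes. At an unadjusted p under 0.05 there were 0 of 10, beside 4637 of the 17521 genes, and limma called 0. Without RX10RU the edgeR test called 3 (Ms4a7, Itgam and Cd68), beside 7.47% of all genes. For Cd14, which was called over the day in young mice, this test had an adjusted p of 0.716, so its patterns in the 2 groups were not shown to differ.

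In remission 4 of the 10 genes were lower than in nephritic mice of the same 2 time points and 1 was higher, with 8 remission and 13 nephritic mice. Beside these stand 19% of 16344 genes called lower and 16.8% called higher. Msr1 fell by 1.70 on the log2 scale (SE 0.37, adjusted p = 0.00166 by edgeR), Cd14 by 1.54 (SE 0.48, adjusted p = 0.0176) and Mrc1 by 1.14 (SE 0.28, adjusted p = 0.00407). Itgam fell by 0.83 (SE 0.31, adjusted p = 0.0444). Csf1r rose by 0.28 (SE 0.10, adjusted p = 0.0285).

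Msr1 in remission was at 1.33, 1.88, 2.08 and 1.85 CPM at ZT0 and at 0.396, 2.98, 2.14 and 1.87 CPM at ZT12, and 8 of 8 mice were below the nephritic median of the same times. Mrc1 was at 6.35, 7.73, 9.19 and 8.18 CPM at ZT0 and at 5.24, 14.7, 11.2 and 9.80 CPM at ZT12. Again 8 of 8 mice were below that median, and the mean was 45.5% of the nephritic mean. Cd14 was at 17.1, 23.2, 18.5 and 21.9 CPM at ZT0 and at 18.1, 40.0, 50.7 and 19.5 CPM at ZT12, with 8 of 8 below the median, but no remission mouse fell below the lowest nephritic mouse. Mice s12 and s14, with the 2 highest Cd14 values, also had the highest Lcn2, 57.2 and 65.9 CPM against 7.13 to 21.3 CPM in the other 6.

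Itgam was at 6.44, 12.5, 17.5 and 20.9 CPM at ZT0 and at 3.61, 29.7, 38.3 and 23.3 CPM at ZT12. Here 3 of 8 remission mice were below every nephritic mouse of the same times and the other 5 lay within the nephritic range, and the call rested on single mice. Without s9 its adjusted p was 0.0696 by edgeR and that of Csf1r 0.0421, with 16.8% of all genes called lower and 14.5% higher. The remaining 5 genes were lower without passing: Clec7a at -0.87 (adjusted p = 0.0542), Lyz2 at -0.54 (0.0614), Cd68 at -0.69 (0.0745), Itgax at -0.78 (0.103) and Ms4a7 at -0.61 (0.188) by edgeR.

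The call of Csf1r was lost when CRS6LU, HIL5LL, RX10LU, RX8RU, s3, s4 or s8 was left out (adjusted p of 0.05 to 0.061 by edgeR), and with only the second set's mice as comparison. The counts depended on the setting. The share of all genes called in each of the following fits is not given here, and the 19% and 16.8% above belong to the main edgeR fit. These counts are therefore not set against a share. DESeq2 called 8 of 10, leaving out Itgax and Ms4a7. With only the second set's mice as comparison 2 were called (Mrc1 and Msr1), and with a term for the remission set, bridged by the 4 repeats, 3 (Mrc1, Msr1 and Cd14). Without RX11RU's repeat that last fit called 2, Msr1 and Cd14. The adjusted p of Csf1r was 0.268 with this term and 0.403 without that repeat. Both fits count the original and the repeat of a mouse as separate mice, so their p-values do not rest on mice alone. RX11RU's repeat differed from its original in several members, and whether both come from the same tissue was not tested. Leaving out single mice gave 3 to 8 genes, with 3 without RX10LU or s3 and 8 without RX12LL or s14.

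Against young mice of the same times, 10 of 10 genes were still higher in remission, beside 26.2% of 15982 genes (24.9% without s9). The log2 changes were 3.84 for Itgam (SE 0.33), 3.53 for Ms4a7 (SE 0.31), 2.68 for Itgax (SE 0.33), 2.14 for Lyz2 (SE 0.21) and 1.92 for Cd68 (SE 0.22). For the other 5 genes they were 1.58 for Msr1 (SE 0.23), 1.18 for Clec7a (SE 0.24), 1.15 for Cd14 (SE 0.14), 0.87 for Mrc1 (SE 0.16) and 0.43 for Csf1r (SE 0.09). Every remission mouse was above every one of the 30 young mice for Itgax, Itgam, Lyz2 and Ms4a7, 4 of the 10 genes, beside 1.91% of 17587 genes. For Msr1 this was so in 1 of 8 mice, for Clec7a in 3 and for Mrc1 and Csf1r in 4. With the set term the adjusted p of Csf1r was 0.0605 when RX11RU's repeat was left out, and the other 9 genes kept their calls in each alternative run.

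**Figure D5:**
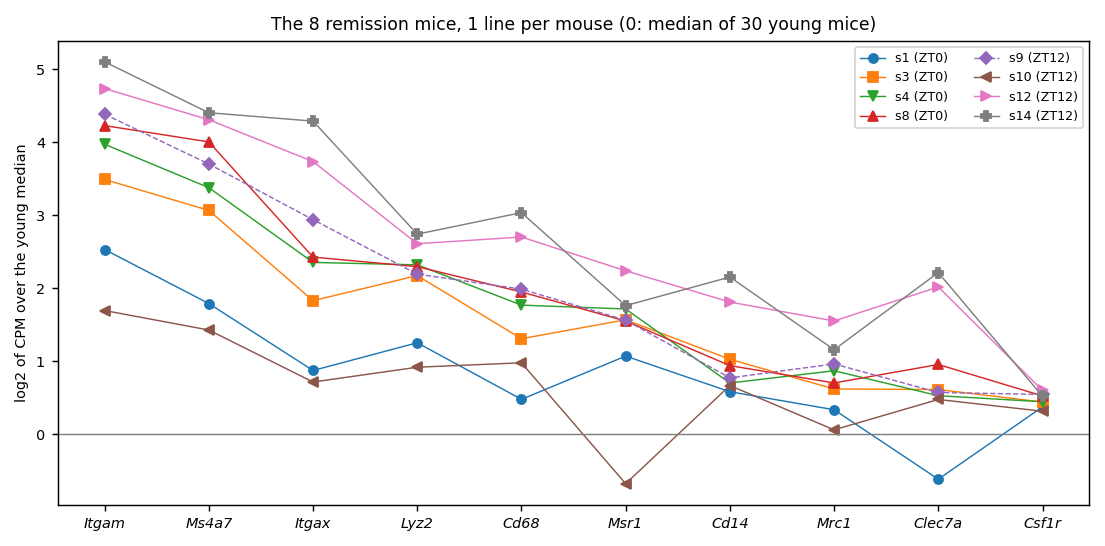
Log2 of each remission mouse's CPM over the young median, for the 10 genes, with 1 line per mouse and s9 dashed. By the median of the mice, Itgam, Ms4a7 and Itgax lie highest above 0 and Csf1r and Clec7a nearest to it. Mice s1 and s10 run below the others in most genes.

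Within remission, 0 of 10 members were called between ZT0 and ZT12 in either direction, beside 0% of 14451 genes. At an unadjusted p under 0.05 there were also 0 of 10. The same test called 0 of 4 clock genes, so it cannot show that the members stay level. DESeq2 and limma also called 0 of the 10. Over all genes 718 were higher and 709 lower at an unadjusted p under 0.05. Without s9, 0 of 10 were called beside 0.608% of genes higher and 0.74% lower at ZT0, and 3 of 4 clock genes were called. Cd14 was then at -0.83 on the log2 scale (unadjusted p = 0.0338, adjusted 0.254 by edgeR) and Clec7a at -1.26 (unadjusted p = 0.0275, adjusted 0.234). Over all 14316 genes of that test 1145 were lower at ZT0 at an unadjusted p under 0.05.

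Around the members, 4 of the 23 other phagocyte genes were lower in remission than in nephritis and 0 higher, a share close to the 19% of all genes called lower. Of the 21 tested against young mice 17 were higher (16 without s9), beside 26.2% of all genes, and 1 was lower. Of 8 monocyte genes 2 were lower than in nephritis (1 without s9), among them Ccr2, which fell by 1.87 on the log2 scale (SE 0.35, adjusted p = 0.00051 by edgeR). Spi1 was at -0.46 (adjusted p = 0.284) against nephritic mice and rose by 2.15 (SE 0.23) against young mice. Of 13 partner genes 6 were lower than in nephritis (5 without s9), and Itgb2 was not among them (-0.21, adjusted p = 0.642). Of 13 lymphocyte genes 2 were lower (1 without s9), again near the 19% of all genes.

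The endothelial genes differed between the remission mice and both other groups. In remission 7 of 7 were higher than in nephritis (6 without s9), beside 16.8% of all genes (14.5% without s9). Against young mice 6 of 7 were higher, beside 26.2% of all genes. Their summed level ran from 638 to 907 CPM in remission, above the 318 to 602 CPM of young and the 189 to 596 CPM of nephritic mice. The remission mice are also a library set of their own, and group and set cannot be told apart in these values. These markers move with the remission group beside the results on the members, and their part in them was not tested.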

How the data were processed

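Kidneys were perfused with PBS, RNA was extracted with TRIzol, messenger RNA was selected with oligo-dT and sequenced on an Illumina instrument with reads of 150 bases. The deposited values are raw counts per gene symbol for each library, made by the authors from reads that aligned uniquely to exons or junctions of the mouse genome with at most 2 mismatches. The methods describe a Burrows-Wheeler alignment, and the submitters' processing notes name HISAT and mm10. Whether counting used strand is not given in the sources used here. Of 24538 symbols listed, 15 held no values and 24523 were used. Reads shared between close relatives such as Lyz1 and Lyz2 are dropped by unique alignment.

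Genes with 100 or more counts in total over the libraries of a comparison were tested with edgeR 4.0.16 (TMM, quasi-likelihood, robust, R 4.3.3), and p-values were adjusted by Benjamini-Hochberg over all genes tested, with 0.05 as the threshold. Groups and times come from the labels and sets from title prefixes. Nephritic against young used time point and set as covariates, daily tests used 6 time points and set, and remission tests used mice of ZT0 and ZT12 with time point. Ratios to Csf1r and slopes on Lcn2 were tested with limma 3.58.1 on log2 CPM with a prior count of 2. The ratios used time point and set as covariates, and the slopes used set only. Correlations used set-adjusted log2 CPM and 100000 permutations (two-sided). Repeat libraries stayed out of the main tests. In the main tests each mouse is 1 library, so their p-values rest on the spread between mice. Fits with a term for the remission set hold both the original and the repeat of the mice sequenced again. They have no term for mouse, so their p-values treat these libraries as separate mice. Each test was tested on simulated data with known changes.

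Alternatives were other size factors, no filter, limma on median-centred log2 counts, DESeq2 1.42.0, the second set alone, no set term, repeats in place of originals, a 24 h cosine, a joint fit, a term for the remission set bridged by repeats, a smaller prior count, the ratio to Cd68, Havcr1 in place of Lcn2, and leaving out each mouse. The 10 genes, the other lists and the tests were chosen with earlier results of these data known. From each other list the named genes are, among those called for nephritic against young, the 3 with the largest change and the 1 with the smallest. Some genes that this rule selects are not reported here. For likeness they are the 2 genes with the highest correlation. Lists of the study were not used.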

Additional observations from a re-analysis of the deposited data

Results flagged for a closer look

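The highest or lowest mouse of a group of 4 to 10 was tested for standing apart from the others with Dixon's 95% limit, in 120 groups of 1 gene at 1 time point, and 12 stood apart. Chance gives about 1 in 20 groups, and no explanation was weighed.

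Of these, 2 were nephritic mice. Csf1r was at 113 CPM in RX10RU at ZT8, against 77.8 to 82.5 CPM in the other 3 mice, and this mouse goes against its time label by its clock genes. Itgam was at 91.0 CPM in HIL5RU at ZT12, against 28.8 to 42.4 CPM in the other 5. In remission Lyz2 was at 86.0 CPM in s1 at ZT0, against 163 to 180.3 CPM in the other 3.

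The other 9 were young mice. Cd14 was low in 3 of them: 8.33 CPM in ZT00 at ZT0 (10.4 to 11.7 in the others), 12.2 CPM in ZT20LU at ZT20 (14.2 to 14.5) and 7.41 CPM in ZT8LL at ZT8 (8.74 to 8.79). Lyz2 was low in 2, at 14.5 CPM in ZT00 at ZT0 (33.3 to 59.5) and 23.8 CPM in ZT8RL at ZT8 (32.1 to 33.5). At ZT4 Itgam was at 1.43 CPM in ZT4LU (0.978 to 0.988) and Msr1 at 0.489 CPM in ZT4RL (0.716 to 0.758). Mrc1 was at 2.68 CPM in ZT12RU at ZT12 (4.69 to 6.38), and Clec7a at 1.90 CPM in ZT200 at ZT20 (2.57 to 2.64). Mouse ZT00 was thus low for both Cd14 and Lyz2.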

How the results depend on the processing

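Of 586 values recomputed under an alternative other than leaving out a mouse, 553 kept their direction and their side of the threshold, 16 lost a call, 13 gained one and 4 changed sign. Of 3003 values with a mouse left out, 2943 were kept, 21 lost a call, 34 gained one and 5 changed sign. The counts of members called nephritic above young and remission above young stayed within 1.5 times under every alternative run. In young mice over the day the joint fit called 1 gene, and leaving out a mouse gave 2 to 4. In nephritic mice over the day limma called 2, DESeq2 2 and the joint fit 3, and leaving out a mouse gave 0 to 5. The test of a different daily pattern gave 0 to 3 with a mouse left out, and 3 only without RX10RU. For remission against nephritic mice DESeq2 called 8, a term for the remission set 3, that term without RX11RU's repeat (chosen after seeing the data) 2 and the second set's mice alone 2, and leaving out a mouse gave 3 to 8. With Havcr1 in place of Lcn2, 5 members were called in place of 7. As a ratio to Cd68 in place of Csf1r, Mrc1 (-0.57) and Clec7a (-0.59) were lower in nephritic mice, having risen less than Cd68. Cd14 was at -0.23 without passing. Between ZT0 and ZT12 in remission Msr1 changed sign with limma (0.23), and with a mouse left out Msr1 ran from -0.40 to 0.30 and Lyz2 from -0.45 to 0.011, none of them called. The cause of these changes was not tested. Shares of all genes called under these alternatives are not given here, apart from those without RX10RU or s9. The emphasis on RX10RU was also chosen after seeing the data.

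No paired analysis was possible because the labels number no replicates that the groups share. The remission libraries are the shallowest, and at a median of 0.633 CPM in young mice Msr1 rests on the fewest counts per kilobase.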

Other observations

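Dendritic cell genes were not described above. Of 9 dendritic cell genes 7 were higher in nephritic than in young kidney and 0 lower by edgeR. Ccr7, which guides dendritic cells and T cells to lymph nodes, rose by 2.90 on the log2 scale (SE 0.20), Xcr1 of the cross-presenting subset by 1.52 (SE 0.15), the growth factor receptor gene Flt3 by 1.25 (SE 0.16) and Zbtb46 by 0.23 (SE 0.09). Their summed level ran from 9.98 to 18.6 CPM in young, 12.9 to 55.8 CPM in nephritic and 13.6 to 29.5 CPM in remission mice. Among the 7 endothelial genes in nephritis, Kdr fell by 0.65 (SE 0.13), Tek by 0.36 (SE 0.09), Ehd3 by 0.32 and Emcn by 0.23.

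The 4 mice sequenced again gave close values for Csf1r and differed in some other members. Csf1r was at 65.3 and 66.4 CPM in the original and repeat of ZT0LU and at 105 and 109 CPM in those of RX11RU. In ZT12RU Itgax was at 0.586 CPM in the original and 1.31 CPM in the repeat, Itgam at 0.625 and 1.07 CPM, and Clec7a at 1.09 and 1.88 CPM. In RX11RU Itgam was at 43.6 CPM in the original and 17.4 CPM in the repeat, Itgax at 14.7 and 8.89 CPM, and Cd14 at 36.4 and 52.9 CPM. The labels do not say whether a repeat comes from the same RNA or the same piece of kidney, which bears on every fit that uses the repeats as a link between sets.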
